A study of Homo sapiens with 18 samples.

Results

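The genes described are 10 genes grouped as p53 targets in redox control and metabolism, namely TP53I3, FDXR, GLS2, SCO2, GPX1, SESN1, SESN2, SESN3, DRAM1 and PRKAB1. Whether each is a direct target of p53 in these cells was not tested, and SESN3 was not raised by Nutlin. They were selected by their symbols, and all 10 were found among the 23368 gene rows of the count tables. RNA had been sequenced from SJSA-1 cells, a human osteosarcoma cell line in which the genes for MDM2 and CDK4 are co-amplified, as 3 replicates in each of 6 groups. DMSO was the control. Nutlin, an MDM2 antagonist, was given at 20 µM for the final 6 h. PD0332991 (Palbociclib), a CDK4/6 inhibitor, was given at 10 µM either over the entire 30 h (PD30) or for 24 h and then removed for the remaining 6 h (PD24). The groups N+PD24 and N+PD30 received Nutlin with either schedule. All groups were the same cell line, so the values describe 1 tumour line, and the study calls its replicates biological triplicates.

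p53 is a transcription factor that MDM2 binds, inhibits and marks for degradation, and Nutlin releases it by blocking that binding. Beyond cell cycle arrest and apoptosis, p53 raises genes that tune the redox state and nutrient use of a cell. TP53I3 (PIG3) is a quinone oxidoreductase, FDXR (ferredoxin reductase) passes electrons from NADPH to mitochondrial ferredoxins, and GPX1 (glutathione peroxidase) removes hydrogen peroxide. SCO2 is needed to assemble cytochrome c oxidase, and GLS2 is a mitochondrial glutaminase. The Sestrins SESN1, SESN2 and SESN3 restrain mTORC1, PRKAB1 is the beta 1 subunit of the energy sensor AMPK, and DRAM1 is a lysosomal membrane protein that takes part in autophagy.

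The DNA around the start sites was searched for matches to the p53 consensus, 2 adjoining copies of the p53 decamer with no spacer, within 2000 bases on either side of the canonical start in GRCh37. Only windows that kept the core C and G of both decamers were taken, on either strand. The 4 closest matches are shown because they come nearest to the consensus, with the core C and G in capitals.
GLS2: aggCttGctggggCatGcgc
GPX1: gggCcaGaccagaCatGcct
FDXR: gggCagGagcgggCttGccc
TP53I3: cagCttGcccaccCatGctc

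The GLS2 match, at chr12:56881897-56881916 on the minus strand, had 2 mismatches and overlapped an exon, 38 bases after the start. The GPX1 match, at chr3:49395954-49395973 on the minus strand, also had 2 mismatches and lay 178 bases before the start. A match with at most 2 mismatches was present at 2.904% of 19867 protein-coding genes searched in the same way. The FDXR match (chr17:72869121-72869140, minus strand) lay 12 bases before the start and the TP53I3 match (chr2:24308035-24308054, minus strand) 341 bases before it. Both had 3 mismatches, a level that 16.162% of all genes reached. The closest matches of DRAM1, PRKAB1, SCO2 and SESN2 had 4 mismatches, as 47.435% of all genes did or bettered, and those of SESN1 and SESN3 had 5. Distances run from the middle of each match to the canonical start. The matches of GPX1, FDXR, TP53I3 and PRKAB1 lay before that start but inside the annotated genes, which begin farther upstream. Such matches are letters in a window, and binding was not measured in these data.

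TP53I3 also carries a tandem repeat of 5-base units (TGCCC or TGTCC, searched on both strands) in its transcribed start region, which is shown because few genes have one. It spanned 15 units at chr2:24307213-24307287 on the minus strand, 417 to 491 bases after the canonical start, and overlapped an exon. Its first 30 bases, with the first unit in capitals, are as follows.
TP53I3 repeat: TGCCCtgtcctgtcctgccctgccctgtcc

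A run of at least 5 such units was found at 6 of the 19867 genes (0.03%). In the map of matches relative to the start sites, those of FDXR, GLS2 and PRKAB1 (104 bases before) lay closest.

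**Figure D1:**
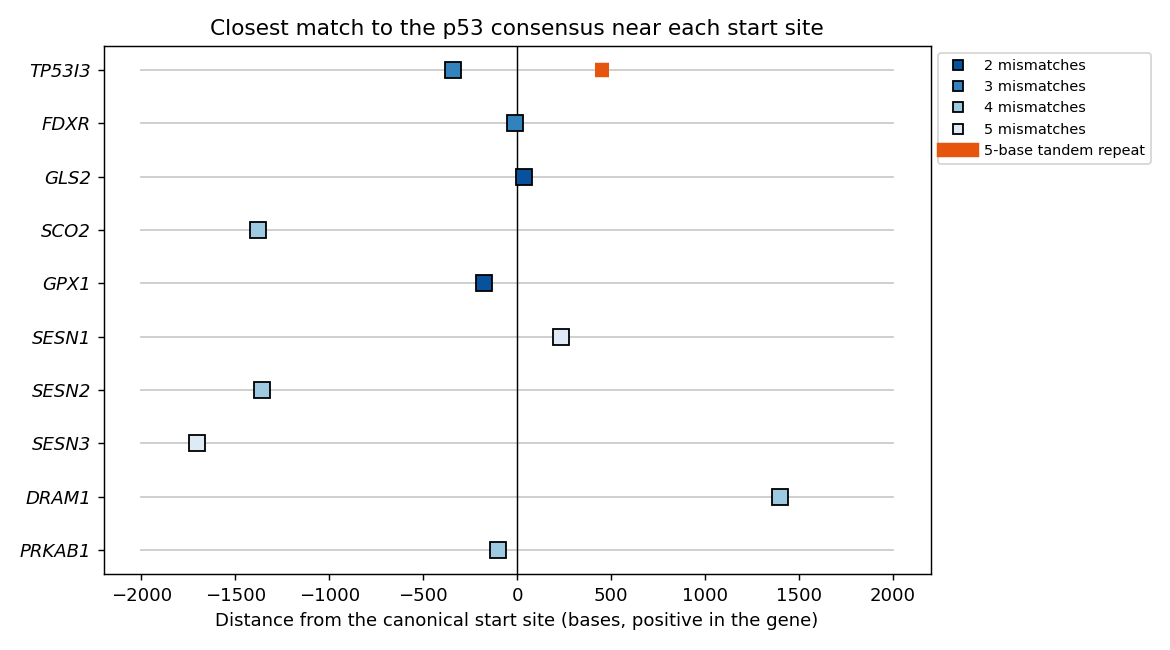
Position of the closest match to the p53 consensus (squares, shaded by mismatches) for each gene, as the distance in bases from the canonical start site, with the TP53I3 tandem repeat as an orange bar. The matches of FDXR and GLS2 sit 12 bases before and 38 bases after the start, and that of SESN3 lies farthest away, 1703 bases before it.

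Total counts per library ranged from 12704845 (N+PD30 replicate 1) to 40231041, with a median of 29608936. Levels are given as CPM, the count relative to the library total on the usual scale, and log2 fold changes come from fits across all genes. A gene was called when its Benjamini-Hochberg adjusted p lay under 0.05. The summed level of 10 osteoblast and mesenchymal markers lay between 5524 and 8902 CPM in all libraries, with SPARC, COL1A1 and VIM high, but the osteoblast markers SP7, IBSP and BGLAP were at or near 0. The summed level of 10 markers of other cell types lay between 112 and 279 CPM, most of it KRT18. It was 197 to 279 CPM in DMSO and 173 to 200 CPM in Nutlin, where KRT8, CDH1, PECAM1 and ALB were called higher and KRT18 lower. EPCAM and CD14 were not called, beside 54.6% of all genes called in either direction. PTPRC, CD3E and CDH5 lay at 0.49 CPM or less in every library and are not counted here. The part of these markers in the results was not tested. The reference targets answered as markers of the p53 response, with MDM2 3.27 and CDKN1A 4.56 higher in Nutlin than in DMSO on the log2 scale.

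Expressed per kilobase of canonical transcript, the genes covered a wide range of levels. In DMSO, GPX1 was the most abundant, at 164 CPM per kilobase, followed by DRAM1 at 21.9 and TP53I3 at 15.0. PRKAB1 stood at 9.76, FDXR at 8.16, SESN2 at 4.55 and SESN1 at 3.45 CPM per kilobase. GLS2 (0.479), SESN3 (0.264) and SCO2 (0.252) had the lowest values on this scale. GPX1, GLS2 and SCO2 share most of their exon bases with another gene, and how far the assignment of reads lowered or raised their counts was not tested. In Nutlin the order among the abundant genes changed, with GPX1 at 288, TP53I3 at 134, FDXR at 103 and DRAM1 at 46.2 CPM per kilobase.

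Nutlin alone raised most of the genes. Of the 9 genes that could be tested, 8 were called higher and none lower, where 54.6% of all 15766 genes tested were called in either direction. The median log2 fold change was 1.40 over these 9 genes and 0.028 over all genes. FDXR, TP53I3 and SESN1 rose the most, and SESN3 stood at its DMSO level. SCO2 was not tested because it had too few reads.

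TP53I3 and FDXR, both electron-transfer enzymes, rose in every Nutlin library. TP53I3 was at 26.6, 27.1 and 20.7 CPM in the 3 DMSO libraries and at 229, 234 and 204 CPM in the Nutlin libraries. The groups were far apart, and the log2 fold change was 3.29 ± 0.13 (SE, adjusted p = 2.73e-07), a 9.79-fold rise. FDXR rose from 17.8, 15.8 and 11.5 CPM in DMSO to 153, 216 and 204 CPM in Nutlin, with a log2 fold change of 3.79 ± 0.19 (SE, adjusted p = 8.05e-07). This 13.8-fold rise was the largest among the 9 genes tested.

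GPX1 and GLS2 rose by less. GPX1 was at 213, 133 and 97.3 CPM in DMSO and at 167, 294 and 315 CPM in Nutlin. The groups overlapped, since DMSO replicate 1 lay above Nutlin replicate 1, and the log2 fold change was 0.93 ± 0.28 (SE, adjusted p = 0.0184). This call was lost without DMSO replicate 2 (adjusted p = 0.0544), without Nutlin replicate 2 (0.0753) and without Nutlin replicate 3 (0.0743). GLS2, which was low throughout, rose from 0.788, 1.35 and 1.29 CPM to 2.95, 2.80 and 2.87 CPM. Its groups did not overlap, and the log2 fold change was 1.46 ± 0.23 (SE, adjusted p = 0.000532).

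Among the mTORC1 and autophagy regulators, SESN1 rose from 18.6, 20.6 and 19.5 CPM to 154, 120 and 113 CPM (log2 fold change 2.85 ± 0.14 SE, adjusted p = 7.05e-07). SESN2 rose from 15.8, 18.4 and 13.0 CPM to 39.5, 35.6 and 39.5 CPM (1.40 ± 0.14 SE on the log2 scale, adjusted p = 2.66e-05). The third Sestrin behaved otherwise. SESN3 was at 2.24, 2.91 and 2.42 CPM in DMSO and at 2.75, 2.30 and 1.88 CPM in Nutlin, with overlapping groups and a log2 fold change of 0.0048 ± 0.21 (SE, adjusted p = 0.987). DRAM1 rose from 74.1, 69.9 and 71.1 CPM to 157, 139 and 159 CPM, a log2 fold change of 1.20 ± 0.086 (SE, adjusted p = 4.94e-06).

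PRKAB1 was at the limit of the test. It was at 22.5, 20.7 and 21.8 CPM in DMSO and at 24.1, 22.1 and 26.0 CPM in Nutlin, so the groups overlapped, and its log2 fold change was 0.28 ± 0.10 (SE, adjusted p = 0.0454). The adjusted p was 0.0507 with DESeq2, 0.263 with scaling by total counts and 0.10 without a filter on low counts. Leaving out any of the 6 libraries ended the call as well, with adjusted p from 0.0510 without Nutlin replicate 2 to 0.186 without DMSO replicate 2.

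PD0332991 alone lowered SESN1 and SESN3 and raised DRAM1 under both schedules. In PD24 against DMSO, 1 gene was called higher and 2 lower of 10 tested, where 38.3% of all 15094 genes were called. In PD30 against DMSO, 1 was higher and 4 were lower of 9 tested, against 48.3% of all 15125 genes. These comparisons share their DMSO libraries with each other and with Nutlin against DMSO.

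SESN1 and SESN3 fell under both schedules. SESN1 was at 9.10, 9.15 and 12.6 CPM in PD24 and at 10.2, 8.06 and 11.2 CPM in PD30, all below the lowest DMSO library. It fell by 0.90 ± 0.15 (SE, adjusted p = 0.00157) in PD24 and by 1.01 ± 0.14 (SE, adjusted p = 0.000263) in PD30 on the log2 scale. SESN3 was at 0.611, 1.43 and 1.27 CPM in PD24 and at 0.654, 0.806 and 0.653 CPM in PD30, where it had been 2.24 CPM or more in DMSO. Its log2 fold change was -1.17 ± 0.30 (SE, adjusted p = 0.0144) in PD24 and -1.84 ± 0.22 (SE, adjusted p = 0.000109) in PD30. The PD24 call for SESN3 was lost without DMSO replicate 2 (adjusted p = 0.0578).

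DRAM1 moved the other way. It was at 113, 78.4 and 89.1 CPM in PD24 and at 107, 96.3 and 113 CPM in PD30, above the 3 DMSO libraries in each case. Its log2 fold change was 0.54 ± 0.081 (SE, adjusted p = 0.000509) in PD30 and 0.41 ± 0.13 (SE, adjusted p = 0.0356) in PD24. The PD24 call did not survive leaving out DMSO replicate 1 (0.0704), 2 (0.115) or 3 (0.0931) or PD24 replicate 1 (0.0844), each an adjusted p.

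TP53I3 and FDXR were called lower in PD30, on small differences. TP53I3 was at 17.8, 21.3 and 14.8 CPM in PD30, overlapping DMSO, with a log2 fold change of -0.48 ± 0.16 (SE, adjusted p = 0.0349). FDXR was at 9.30, 10.5 and 10.3 CPM, below all DMSO libraries, with -0.60 ± 0.17 (SE, adjusted p = 0.0145). Quantile normalization ended both calls (adjusted p = 0.150 for TP53I3 and 0.115 for FDXR). So did leaving out DMSO replicate 1 (0.0979 and 0.0540), DMSO replicate 2 (0.126 and 0.0552) or PD30 replicate 1 (0.0869 and 0.0528), and for TP53I3 also PD30 replicate 3 (0.111).

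In PD24, TP53I3 was at 25.5, 31.1 and 24.5 CPM and FDXR at 9.68, 13.4 and 8.75 CPM, and neither was called. GPX1 was at 212, 310 and 162 CPM in PD24 and at 124, 190 and 127 CPM in PD30. GLS2 lay between 1.15 and 1.32 CPM in PD24 and between 1.28 and 1.5 CPM in PD30. SESN2 was at 11.03, 11.3 and 13.9 CPM in PD24 and at 14.9, 16.1 and 24.8 CPM in PD30. PRKAB1 was at 19.8, 22.0 and 21.0 CPM in PD24 and at 25.6, 25.1 and 27.5 CPM in PD30. None of these passed the test, and PRKAB1 in PD30 came closest, with a log2 fold change of 0.25 ± 0.093 (SE, adjusted p = 0.0507). It was called higher with DESeq2 (adjusted p = 0.0316), with its size factors in edgeR (0.0421), with scaling by total counts (0.0446), with quantile normalization (0.43 on the log2 scale, 0.00365) and with all groups in one fit (0.0377).

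Keeping PD0332991 on for the last 6 h, instead of removing it, called 1 of 9 genes lower and none higher (PD30 against PD24), where 25.2% of all 15171 genes were called (6107 with the replicate block in place of 3816). This gene was TP53I3, with a log2 fold change of -0.62 ± 0.17 (SE, adjusted p = 0.0277). The call was lost without PD24 replicate 1 (0.0565), PD24 replicate 2 (0.0758), PD30 replicate 1 (0.0797) or PD30 replicate 3 (0.0891). Without a block, SESN2 had 0.58 ± 0.20 (SE, adjusted p = 0.0594) and GPX1 -0.67 ± 0.25 (SE, adjusted p = 0.0811). With the replicate number as a block, GPX1 was called lower (-0.64, adjusted p = 0.00109) and SESN2 higher (0.56, adjusted p = 0.00712), which gave 3 calls in all. Of 13 alternative fits, TP53I3 was not called in 4, SESN2 in 5 and GPX1 in 8, so the 3 genes differed little in this respect.

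With PD0332991 present throughout, Nutlin still raised the genes. N+PD30 against PD30 called 9 of 10 genes higher and none lower, where 14.5% of all 15077 genes were called (4375 genes with the replicate block in place of 2183). Leaving out 1 library moved this count over all genes to 583 without PD30 replicate 1, 1150 and 1064 without PD30 replicates 2 and 3, and 625 and 3384 without N+PD30 replicates 2 and 3. The median log2 fold change was 1.68 over the 10 genes and -0.0058 over all genes. SESN3 was again the exception, with 0.630, 0.571 and 0.726 CPM in N+PD30 and a change of -0.06 ± 0.27 (SE, adjusted p = 0.899).

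The largest rises were again those of FDXR, SESN1 and TP53I3. FDXR reached 163, 155 and 132 CPM in N+PD30, with a log2 fold change of 4.001 ± 0.14 (SE, adjusted p = 2.98e-06). SESN1 reached 129, 116 and 132 CPM, with 3.77 ± 0.14 (SE, adjusted p = 3.45e-06), and TP53I3 reached 148, 145 and 110 CPM, with 3.001 ± 0.19 (SE, adjusted p = 5.98e-05). No library of PD30 came near these levels. SESN2 rose to 52.9, 65.8 and 92.3 CPM, a log2 fold change of 2.01 ± 0.24 (SE, adjusted p = 0.00190). GPX1 rose to 443, 344 and 264 CPM (1.35 ± 0.24 SE, adjusted p = 0.0108) and GLS2 to 3.23, 2.65 and 3.83 CPM (1.27 ± 0.21 SE, adjusted p = 0.00778). The GPX1 call was lost without PD30 replicate 1 (adjusted p = 0.0607).

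PRKAB1 and DRAM1 completed this group. PRKAB1 rose to 47.6, 47.6 and 56.8 CPM, with a log2 fold change of 1.05 ± 0.10 (SE, adjusted p = 0.000685), and DRAM1 to 194, 189 and 211 CPM, with 1.00 ± 0.096 (SE, adjusted p = 0.000525). Neither overlapped PD30, and both stood higher in N+PD30 than in any other group.

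The response to Nutlin was also measured after removal of PD0332991. In N+PD24 against PD24, 6 of 10 were called higher and none lower, where 36.8% of all 15750 genes were called. The median log2 fold change was 0.88 over the 10 genes and 0.039 over all genes. These fits used limma, since the N+PD24 values were deposited as normalized signal. FDXR was at 94.9, 167 and 167 CPM in N+PD24 (3.85 ± 0.22 SE on the log2 scale, adjusted p = 2.40e-06), and SESN1 at 119, 98.3 and 102 CPM (3.51 ± 0.16 SE, adjusted p = 1.11e-06). TP53I3 was at 155, 182 and 187 CPM (2.83 ± 0.13 SE, adjusted p = 1.11e-06). All 3 genes were thus several fold above PD24 in each library.

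SESN2 was at 24.5, 21.6 and 35.2 CPM (1.27 ± 0.19 SE, adjusted p = 0.000476), GLS2 at 1.89, 2.36 and 2.64 CPM (0.98 ± 0.22 SE, adjusted p = 0.00508) and DRAM1 at 171, 116 and 150 CPM (0.77 ± 0.18 SE, adjusted p = 0.00643). These 3 genes also lay above PD24 in every library. GPX1, at 185, 398 and 326 CPM, had a log2 fold change of 0.53 ± 0.28 (SE, adjusted p = 0.156), which was called with the replicate block (adjusted p = 0.0107) and without N+PD24 replicate 1 (0.0316). PRKAB1 was at 21.8, 17.9 and 25.5 CPM, overlapping PD24, with 0.18 ± 0.15 (SE, adjusted p = 0.392). SESN3 was at 0.697, 1.25 and 1.48 CPM, with 0.19 ± 0.35 (SE, adjusted p = 0.704).

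**Figure D2:**
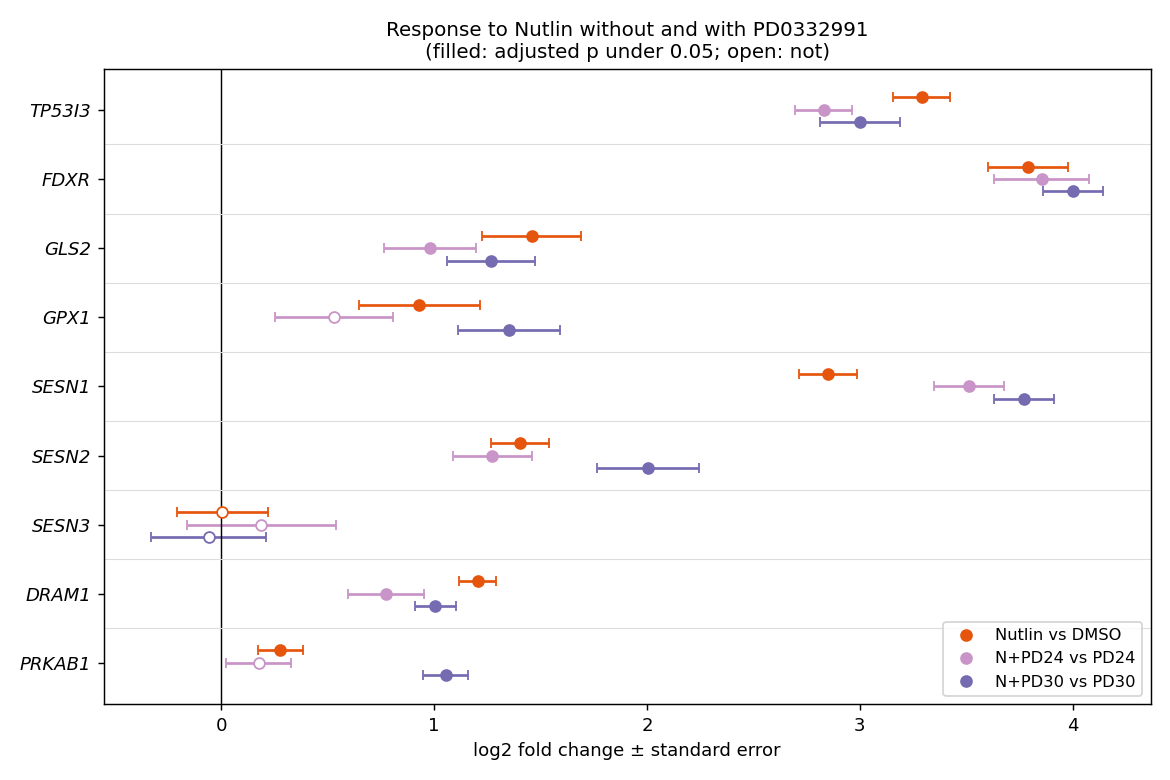
Log2 fold change ± standard error after Nutlin for 9 genes, without PD0332991 (orange), after its removal (pink) and with it throughout (purple), where filled points have an adjusted p under 0.05. SCO2 is left out because of its few reads. PRKAB1 changes from 0.28 to 1.05 and SESN1 from 2.85 to 3.77 with PD0332991 throughout, whereas SESN3 lies near 0 in each case.

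A comparison of these responses asked whether PD0332991 altered the answer to Nutlin. The interaction of Nutlin with PD30, fitted over the 12 libraries, called 3 of 10 genes higher and none lower, where 19.8% of all 16113 genes were called. PRKAB1 had an interaction of 0.83 ± 0.14 on the log2 scale (SE, adjusted p = 0.00123). It rose further under Nutlin when PD0332991 was present than when it was absent. SESN1 had an interaction of 0.97 ± 0.20 (SE, adjusted p = 0.00394). It stood at 113 to 154 CPM in Nutlin and at 116 to 132 CPM in N+PD30, while its level without Nutlin was lower in PD30 than in DMSO. SCO2 had an interaction of 4.31 ± 1.39 (SE, adjusted p = 0.0434), which rests on few reads and is described with its counts below.

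The other 7 genes did not pass the test of the interaction. For FDXR it was 0.26 ± 0.24 (SE, adjusted p = 0.485) and for TP53I3 -0.24 ± 0.23 (SE, adjusted p = 0.510). Both estimates were close in size to their standard errors. SESN2 had 0.65 ± 0.30 (SE, adjusted p = 0.146), which was called without PD30 replicate 3 (0.93, adjusted p = 0.0283). The interaction of Nutlin with PD24 called none of the 10 genes by limma, and 0.898% of all 16484 genes. At an unadjusted p under 0.05 there were 2 genes, SESN1 (0.70 ± 0.22 SE, adjusted p = 0.182) and TP53I3 (-0.45 ± 0.18 SE, adjusted p = 0.361). edgeR and DESeq2 on the recovered reads each called 0 of the 10 genes.

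The level reached under Nutlin was then compared with and without PD0332991. In N+PD30 against Nutlin, 4 of 10 genes were called higher and 2 lower, where 49% of all 15721 genes were called. The median log2 fold change was 0.23 over the 10 genes and 0.0021 over all genes. These comparisons share the Nutlin libraries with Nutlin against DMSO. Over all genes, 3823 were called higher and 3888 lower, so nothing particular to the 10 genes is read from their mixed directions. The reference targets MDM2 (-1.70) and CDKN1A (-0.78) were both lower in N+PD30 on the log2 scale. Both were also lower in PD30 than in DMSO (MDM2 -0.98, CDKN1A -0.57). The interaction of Nutlin with PD30 called 1 of these 2 lower and the other not.

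PRKAB1 and SESN2 rose clearly, while SCO2 was called higher on few reads and is described below. PRKAB1 was 2.05-fold higher in N+PD30 than in Nutlin, with a log2 fold change of 1.03 ± 0.12 (SE, adjusted p = 7.50e-05), and every N+PD30 library lay above every Nutlin library. SESN2 was 1.78-fold higher (0.83 ± 0.17 SE on the log2 scale, adjusted p = 0.00210), also without overlap. The third N+PD30 library was the highest for both genes. DRAM1 was higher by 0.35 ± 0.11 (SE, adjusted p = 0.0248) on the log2 scale. Its call was lost without Nutlin replicate 2 (0.118), Nutlin replicate 3 (0.0532), N+PD30 replicate 2 (0.0606) or N+PD30 replicate 3 (0.0524).

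TP53I3 and SESN3 were lower. TP53I3 fell from 204 CPM or more in Nutlin to at most 148 CPM in N+PD30, a difference of -0.76 ± 0.15 on the log2 scale (SE, adjusted p = 0.00214). SESN3 had a log2 fold change of -1.90 ± 0.28 (SE, adjusted p = 0.000322), close in size to its -1.84 in PD30 against DMSO. FDXR (-0.38 ± 0.16 SE, adjusted p = 0.0673) was not called, although it was without Nutlin replicate 1 (0.0221) or N+PD30 replicate 1 (0.0386). SESN1 (-0.08 ± 0.14 SE, adjusted p = 0.672), GLS2 (0.12 ± 0.21 SE, adjusted p = 0.666) and GPX1 (0.41 ± 0.25 SE, adjusted p = 0.191) did not pass the test either. GPX1 was called without N+PD30 replicate 3 (adjusted p = 0.0466).

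In N+PD24 against Nutlin, 1 of 9 genes was called lower and none higher, where 33.8% of all 16107 genes were called (8416 with the replicate block in place of 5447). This was SESN3, with a log2 fold change of -0.93 ± 0.28 (SE, adjusted p = 0.0286). Without Nutlin replicate 1 (0.0924), Nutlin replicate 2 (0.0804), N+PD24 replicate 1 (0.0593) or N+PD24 replicate 2 (0.0522) it was no longer called. Here the replicate numbers paired the libraries, and the fit with the replicate block called 5 genes. The added calls were TP53I3 (-0.28, adjusted p = 0.0106), FDXR (-0.38, adjusted p = 0.000963) and SESN2 (-0.45, adjusted p = 0.00187), which were lower, and GPX1 (0.28, adjusted p = 0.00782), which was higher. SESN2 was also called without N+PD24 replicate 3 (-0.63, adjusted p = 0.00855).

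**Figure D3:**
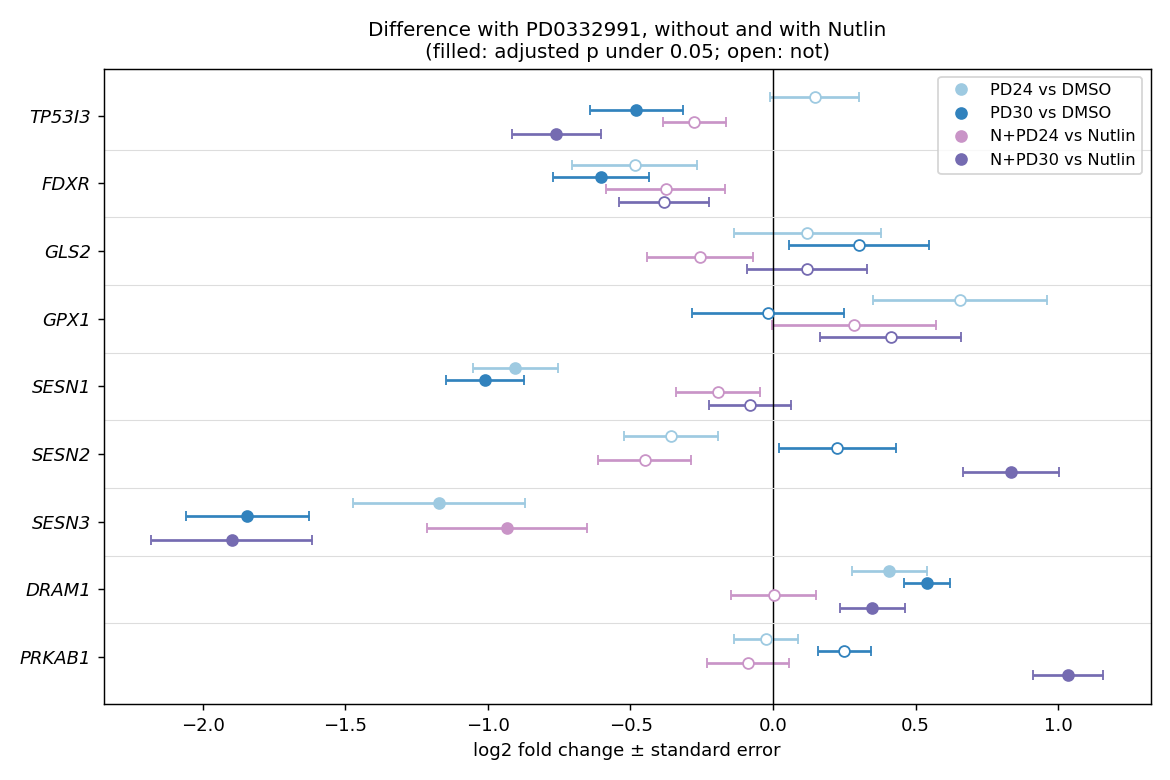
Log2 fold change ± standard error with PD0332991 for 9 genes, without Nutlin (blue) and with Nutlin (pink and purple), where filled points have an adjusted p under 0.05. PRKAB1 and SESN2 are higher in N+PD30 than in Nutlin, and SESN3 is lower in each of the 4 comparisons.

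The schedules were compared directly in N+PD24 against N+PD30, where 1 of 10 genes was called higher and 2 lower, against 31.5% of all 15824 genes. SESN2 was lower after removal of PD0332991 by a log2 fold change of -1.25 ± 0.21 (SE, adjusted p = 0.00234), and PRKAB1 by -1.12 ± 0.15 (SE, adjusted p = 0.000773). For both genes, all 3 N+PD24 libraries lay below all 3 N+PD30 libraries. TP53I3 was higher by 0.49 ± 0.15 (SE, adjusted p = 0.0330), a call that was lost without N+PD24 replicate 2 (0.111) or 3 (0.0821), without N+PD30 replicate 2 (0.0601) or 3 (0.0759), and with scaling by total counts (0.0713). SESN3 (0.79, adjusted p = 0.0276) and DRAM1 (-0.48, adjusted p = 0.0346) were called without N+PD24 replicate 1.

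Some genes had a fixed order of levels over the 6 groups. TP53I3 was highest in Nutlin, then N+PD24, then N+PD30, and the CPM ranges of these 3 groups did not overlap. Below them PD24, DMSO and PD30 overlapped their neighbours. PRKAB1 was highest in N+PD30, and the other 5 groups overlapped their neighbours. SESN2 was highest in N+PD30, then in Nutlin, both clear of the groups below them, while N+PD24, PD30, DMSO and PD24 overlapped their neighbours. DRAM1 was highest in N+PD30, clear of Nutlin and N+PD24, which overlapped, and DMSO stood clear below all others. GLS2 was highest in N+PD30 and Nutlin, which overlapped, with the N+PD24 range below theirs and above the 3 groups without Nutlin. By limma, GLS2 in N+PD24 was called neither against Nutlin (-0.26 on the log2 scale, adjusted p = 0.321) nor against N+PD30 (-0.37, adjusted p = 0.223). SESN3 was highest in DMSO and Nutlin, which overlapped and stood clear of the 4 groups with PD0332991. Each GPX1 group overlapped the next. For FDXR and SESN1 the 3 groups with Nutlin overlapped their neighbours and stood above the 3 groups without it.

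SCO2 could hardly be measured. It had 20, 4 and 0 reads in the DMSO libraries, 0, 4 and 2 in Nutlin, and 38, 34 and 8 in PD24. PD30 had 1, 3 and 9 reads, N+PD24 had 2, 16 and 11 after recovery of the reads, and N+PD30 had 12, 25 and 9. Its log2 fold change was 3.28 ± 0.64 (SE, adjusted p = 0.00169) in N+PD30 against Nutlin and 2.55 ± 0.58 (SE, adjusted p = 0.0251) in N+PD30 against PD30. The call against Nutlin stayed in each of 13 alternative fits. Replicates within a group differed by several fold, and the sizes of these fitted changes depend on few reads.

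The SCO2 call against PD30 was lost without PD30 replicate 1 (0.0876), PD30 replicate 2 (0.0741), N+PD30 replicate 1 (0.0553) or N+PD30 replicate 2 (0.111), and with all groups in one fit (0.0805). The SCO2 interaction was lost without any one of the DMSO replicates 1 (0.341) and 2 (0.0544), the Nutlin replicates 1 (0.0866), 2 (0.0525) and 3 (0.0718), the PD30 replicates 1 (0.0874) and 2 (0.0792), and the N+PD30 replicates 1 (0.0615) and 2 (0.0902), and with all groups in one fit (0.0786). SCO2 in PD24 against DMSO was called without DMSO replicate 1 (0.0406) or PD24 replicate 3 (0.0356). In N+PD24 against PD24 it was called lower without PD24 replicate 3 (0.0160).

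SCO2, on chr22:50961997-50964890 (minus strand), shares 87.1% of its canonical exon bases with NCAPH2 on the opposite strand and overlaps TYMP on its own strand. GLS2, on chr12:56864728-56882198 (minus strand), shares 81.3% with SPRYD4 on the opposite strand. GPX1, on chr3:49394607-49396038 (minus strand), shares 63.6% with an unnamed protein-coding gene on its own strand, and TP53I3, on chr2:24300303-24308731 (minus strand), shares 4.84% with FAM228B on the opposite strand. The authors counted reads with HTSeq's setting for reverse-stranded libraries in its union mode, which leaves out reads that overlap more than 1 gene on the strand counted. Whether the library kit (TruSeq RNA LT) kept the strand is not stated. Reads of SCO2, GLS2 and TP53I3 therefore cannot be told apart with certainty from those of their neighbours on the opposite strand. The neighbour of GPX1 lies on the same strand, so strand cannot separate their reads. Whether the gene models used for counting held that neighbour was not checked. FDXR, on chr17:72858619-72869156 (minus strand), and PRKAB1, on chr12:120105669-120119429 (plus strand), share no canonical exon base with another gene.

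SESN1 is on chr6:109305512-109416049 (minus strand), SESN2 on chr1:28586029-28609002 (plus strand), SESN3 on chr11:94898677-94965705 (minus strand) and DRAM1 on chr12:102271358-102405908 (plus strand). At most 4.29% of their canonical exon bases, in SESN1, were shared with another gene.

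Across the 18 libraries the genes with the most similar profile were named by Pearson's r of log2(CPM + 0.1) among 13559 genes. The libraries share the 6 conditions and their depth, so these values are descriptions. TP53I3 was most like TRIAP1 (r = 0.984) and SRGAP3 (0.983), FDXR most like CDKN1A (0.984) and SRGAP3 (0.983), and SESN1 most like FBXO22 (0.990) and ACER2 (0.985). SESN2 was most like FBXW7 (0.974) and C22orf23 (0.952), DRAM1 most like IP6K3 (0.936) and DUSP14 (0.923), and GLS2 most like F11R (0.951) and PVRL4 (0.933). PRKAB1 was most like MRPL49 (0.920) and PANK1 (0.902), SESN3 most like HNRNPH3 (0.937) and EPS8 (0.931), GPX1 most like CRELD2 (0.976) and LMAN2 (0.976), and SCO2 most like PRR7 (0.938) and SCAF1 (0.929). Among the 10 genes themselves, FDXR and TP53I3 (r = 0.982) and SESN1 and FDXR (0.974) were the closest pairs.

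Other genes of the same pathways were counted in Nutlin against DMSO and in N+PD30 against Nutlin. Values in parentheses are log2 fold changes. These counts stand beside 54.6% and 49% of all genes called in either direction in these comparisons, and nothing particular to a list is read from a share near or below that background. Among 12 other p53 targets of redox and metabolism, Nutlin called 5 higher and 0 lower, led by TP53INP1 (2.43 on the log2 scale), an autophagy factor, and C12orf5 (1.87), which encodes TIGAR. Compared with Nutlin alone, 6 were higher in N+PD30 and 0 lower, led by LPIN1 (1.51) and PANK1 (1.45), enzymes of lipid and coenzyme A synthesis. Of the other AMPK subunits, 5 of 6 were tested. Nutlin lowered 2, the catalytic subunits PRKAA2 (-1.23) and PRKAA1 (-0.32), and raised none. Relative to Nutlin alone, PRKAB2 (0.86) and PRKAG2 (0.29) were higher in N+PD30 and PRKAA1 (-0.44) was lower. PRKAB2, which encodes the beta 2 subunit, thus moved with PRKAB1 in this comparison.

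For the GATOR, TSC and mTORC1 genes, the pathway that Sestrins act on, Nutlin called 4 of 15 higher, with TSC1 (0.68) and WDR24 (0.67) in the lead, and 3 lower, with MIOS (-1.17) and SEH1L (-1.01). Against Nutlin alone, 7 were higher in N+PD30, led by the mTOR inhibitor DEPTOR (1.26) and NPRL2 (0.70), and 1 was lower, the mTORC1 activator RHEB (-0.64). Of 14 tested genes of the DRAM family and the autophagy core, Nutlin raised 2 (MAP1LC3B 0.50, ATG7 0.34) and lowered 3, led by UVRAG (-0.74) and TMEM150C (-0.56). With PD0332991 throughout, against Nutlin alone, 4 were higher, led by TMEM150A (2.28) and UVRAG (0.73), and ULK2 was lower (-0.45). UVRAG thus went in opposite directions in these comparisons, which share the Nutlin libraries.

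Of 10 glutamine and glutamate metabolism genes, Nutlin lowered 7 and raised 0, led by GLUL (-1.44) and GPT2 (-1.24), whereas GLS2 rose. In N+PD30, 4 of 9 were higher than in Nutlin and 0 lower, led by GPT2 (1.00). Of 10 tested glutathione enzymes and related redox genes beside GPX1, Nutlin raised 2 (GSS 0.51, GPX4 0.47) and lowered 2 (GCLC -0.66, GPX8 -0.51), and N+PD30 lowered 2 against Nutlin (GCLM -1.13, GSR -0.47). No quinone oxidoreductase other than TP53I3 was called by edgeR among 7 after Nutlin, and 0 had an unadjusted p under 0.05. Relative to Nutlin alone, VAT1 (1.26) was higher in N+PD30 and 3 were lower, led by NQO1 (-1.08) and NQO2 (-0.62).

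Of 10 ferredoxin and iron-sulfur cluster genes, Nutlin raised 1, the scaffold ISCU (1.40). FDX1L (0.93), a ferredoxin, and HSCB (0.43) were higher in N+PD30 than in Nutlin. Of 13 cytochrome c oxidase assembly genes, Nutlin raised 4, led by SURF1 (0.41) and COX17 (0.36), and lowered 2, COX10 (-1.06) and SCO1 (-0.62), the paralog of SCO2. With PD0332991 throughout, against Nutlin alone, 3 were higher, led by COX10 (0.96) and SURF1 (0.72), and COX11 was lower (-0.41).

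The median log2 fold change of these lists after Nutlin was -0.44 for glutamine and glutamate metabolism and 0.36 for the other p53 targets, and the other 7 lists lay between -0.0077 and 0.20, beside 0.028 over all genes. In N+PD30 against Nutlin the medians were highest for the GATOR, TSC and mTORC1 genes (0.48) and the other p53 targets (0.44), followed by glutamine metabolism (0.38). The glutathione enzymes had a median of 0.24 although their 2 calls were lower. The other 5 lists lay between -0.16 and 0.22, beside 0.0021 over all genes.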

How the data were processed

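RNA of SJSA-1 cells was sequenced by the authors in 18 libraries (single reads). Per the labels, reads were mapped to hg19 with TopHat and Bowtie2, and counted with HTSeq 0.6.0. The authors deposited the counts per gene symbol in 4 tables, whose names call them variance-stabilized although the values are whole numbers. The N+PD24 columns were deposited as signal, which is the count over a size factor, and 100% of their values came out whole within 0.01 when multiplied back. A table of the authors' own comparison (fold changes and p-values) and 2 tables of normalized values were not used. A total of 28 rows have names turned into dates.

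Counts were tested in R 4.3.3 with edgeR 4.0.16 (quasi-likelihood test, TMM, filterByExpr), 2 groups at a time. N+PD24 was tested with limma 3.58.1 on TMM-scaled log2(CPM + 0.1), for genes at 0.3 CPM or more in at least 3 libraries, so that folds of low genes are understated. P-values were Benjamini-Hochberg adjusted over all genes tested. Interactions were fitted over 12 libraries. In 4 comparisons (N+PD30 and PD30, PD30 and PD24, N+PD24 and Nutlin, N+PD24 and PD24) same-numbered libraries deviated together (r from 0.201 to 0.753 over the pairs). The replicate block is therefore given there where it changes a call. PD30 replicate 2, however, was more like an N+PD30 library of another number (r = 0.546) than the same-numbered one (0.326).

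The 10 genes were selected by symbol and the lists compiled with earlier results of these data known. All 10 genes were named, beside the 2 called genes of each list with the largest change in each direction, and the 2 genes most like each. Of the genes that this rule selects in the lists, 2 are not reported here. The alternatives were DESeq2 1.42.0, other scalings, filters, pseudocounts and thresholds, a replicate block, all groups in one fit, and leaving out each replicate. GENCODE on GRCh37 gave positions and start sites. The sequencer model and the Nutlin doses differ between the labels and the study's own text, and the labels' dose is given.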

Additional observations from a re-analysis of the deposited data

Results flagged for a closer look

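The response to Nutlin differed with PD0332991 throughout from the response without it for 3 genes, by the interaction term over 12 libraries. PRKAB1 had an interaction of 0.83 on the log2 scale, and it was called in every alternative run. SESN1 had an interaction of 0.97, which was also called in every alternative run. SCO2 had an interaction of 4.31 on at most 25 reads per library in these 4 groups, and it was lost when any of 9 libraries was left out, and with all groups in one fit (adjusted p = 0.0786).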

How the results depend on the processing

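Of 106 values for single genes, 45 were called, and 32 of these stayed past the threshold under every alternative that gave a value. Over 1536 alternative values, 60 lost a call, 51 gained one and 0 reversed, while 66 changed sign without being called in either fit. DESeq2 gave SCO2 in N+PD30 against PD30 no adjusted p.

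With a log2 fold change over 1 also required, the number of the genes called was 1 in place of 3 in PD24 against DMSO, 2 of 5 in PD30 against DMSO, 3 of 6 in N+PD30 against Nutlin, 1 of 3 in the interaction with PD30, and 0 of 1 both in PD30 against PD24 and in N+PD24 against Nutlin. With the replicate block, which changed no call of a member where the numbers pair the libraries other than those given above, it was 6 in PD24 against DMSO, 3 in PD30 against PD24 and 5 in N+PD24 against Nutlin. In PD24 against DMSO the numbers share too little to pair libraries (lowest r = 0.0809), and the block also ended the PRKAB1 call in Nutlin against DMSO (adjusted p = 0.0682). PD30 against PD24 gave 3 calls with DESeq2, 2 with scaling by total counts, 2 with quantile normalization, 4 without a filter and 4 with all groups in one fit. N+PD24 against Nutlin gave 3 with scaling by total counts and 3 with quantile normalization, and N+PD24 against N+PD30 gave 5 with all groups in one fit. The cause was not tested.

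Leaving out single replicates gave 1 to 4 calls in PD24 against DMSO, 3 to 5 in PD30 against DMSO, 0 to 4 in PD30 against PD24, 0 to 2 in N+PD24 against Nutlin and 2 to 5 in N+PD24 against N+PD30. Without DMSO replicate 3 or PD24 replicate 2, FDXR was called in PD24 against DMSO (adjusted p = 0.0455 and 0.0352), and GPX1 without DMSO replicate 1 (0.0267).

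Scaling by total counts moved the median of all genes by -0.13 in Nutlin against DMSO, where calls went from 4198 higher and 4416 lower to 3151 and 5439. It moved it by -0.14 in N+PD24 against PD24 (2653 and 3147 to 1874 and 4130) and by -0.11 in N+PD24 against N+PD30 (2533 and 2445 to 1976 and 3115). In N+PD30 against PD30 the split went from 1333 and 850 to 1107 and 1421, and to 1262 and 1672 with all groups in one fit. Quantile normalization gave 3396 and 2689 in PD24 against DMSO (2639 and 3142 before), 4418 and 3179 in PD30 against DMSO (3468 and 3839) and 1526 and 1513 in the interaction with PD30 (2060 and 1133). edgeR on the recovered N+PD24 reads called 5483 genes against Nutlin, 5713 against PD24, 4959 against N+PD30 and 116 for the interaction with PD24. For that interaction limma called 148 genes, or 319 with the replicate block and 288 with a pseudocount of 1 CPM, and DESeq2 called 318. Over all genes, leaving out 1 library also moved the counts to 2178 (without PD30 replicate 1) and 2520 (without PD30 replicate 3) from 3816 in PD30 against PD24. In N+PD24 against PD24 it was 3294 without N+PD24 replicate 2 in place of 5800, in N+PD24 against N+PD30 2855 without N+PD24 replicate 2 and 3192 without N+PD30 replicate 2 in place of 4978, and in the interaction with PD24 as low as 42 without DMSO replicate 2.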
